A study of Mus musculus with 4 samples.

Results

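The arrays carried probes for the cell adhesion receptors and basement membrane proteins of the integrin, laminin and associated ligand families. All probes with a platform symbol of an integrin alpha or beta subunit or a laminin chain were taken, with those of fibronectin (Fn1), nephronectin (Npnt), the nidogens (Nid1, Nid2) and the Fras1 and Frem genes, and the integrin binding protein genes were left out. The rule found 38 of the 15096 genes named on the arrays, read by 45 of 22702 probes: 26 for integrin subunits and 19 for laminin chains and ligands. Members were taken by gene name, and the rule was set with earlier results of these data known.

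RNA came from metanephric mesenchyme (MM), the mesenchyme of the permanent kidney, and from intermediate mesoderm (IM), the mesoderm strip that forms the urogenital system. Both were dissected from mouse embryos of both sexes at 10.5 days post coitum, with no mutation or treatment in the labels. Each of 4 two-colour oligonucleotide arrays held both tissues: MM was channel 1 and IM channel 2 on arrays 1 and 2, and arrays 3 and 4 had them exchanged. The labels of arrays 3 and 4 read intermediate mesenchyme and metanephric mesoderm, taken here as the same tissues. The deposited value is 1 log2 ratio per probe and array, read as MM over IM, the likely direction from the titles and channels, since no label ties a dye to a channel. A positive value thus means higher in MM. Of 8 kidney mesenchyme markers measured in full, 5 were called higher in MM and Wt1 lower in both of the fits described below. Over all probes measured in full, the shares called so were 14.6% higher and 15.4% lower. The markers Eya1 and Hoxd11 were not called, and a ratio cannot show whether a marker is absent from a tissue.

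Integrins are receptors of 1 alpha and 1 beta subunit that hold cells to the extracellular matrix and signal through adaptor proteins at their inner tails. Laminins are trimers of an alpha, a beta and a gamma chain that form the sheet of a basement membrane, to which nidogens link the collagen IV network. In the mouse kidney, the receptor of Itga8 and Itgb1 in the mesenchyme binds nephronectin laid down by the ureteric bud, and Fras1, Frem1 and Frem2 help to hold nephronectin in place.

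Of the 45 probes, 18 had a value above the floor on every array, 5 had all 4 values but stood at the floor on arrays 3 and 4, and 22 lacked a value. The floor is -6.64, the log2 of a ratio of 0.01 shared by all arrays, and is no measured fold. Probes measured this fully made up 40% of the members and 58.1% of all probes. They numbered 13 of 19 for laminins and ligands and 5 of 26 for integrin subunits. The depth of these values is unknown, because no intensities are given, and the number of arrays limits their precision.

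Each probe was fitted with limma, with and without a term for channel orientation, and a gene is said here to rise or fall where its Benjamini-Hochberg adjusted p over all 14184 fitted probes was under 0.05. The residual of the fit with the term comes only from arrays of the same orientation, so calls made in both fits are given apart. With the orientation term, 12 of the 18 probes were called, against a background of 60.1% of the 13191 probes measured above the floor. These were 4 higher in MM (background 25.6%) and 8 lower (background 34.5%). In both fits 7 were called, or 38.9%, against 30.1% of all such probes: 3 higher (background 14.6%) and 4 lower (background 15.4%). The shares lay near the background, so being called does not set the family apart. Leaving out 1 array in turn left 0 to 1 higher and 0 to 3 lower calls in both fits, with none lower without array 1, 3 or 4 and none higher without array 2 or 4.

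The 18 ratios had a median of -0.11 on the log2 scale, against -0.05 over all probes of this kind, and ran from -0.86 to 0.76. The same sign on all 4 arrays was seen for 9 probes, 3 higher and 6 lower, where the background was 52.6% (22.6% higher and 30% lower). Among the 12 called probes, 3 changed sign between arrays: Itgb5, Lamc3 and Nid1. Whole tissue was hybridised, so fewer cells of a type and less RNA per cell cannot be told apart in any of these values.

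**Figure D1:**
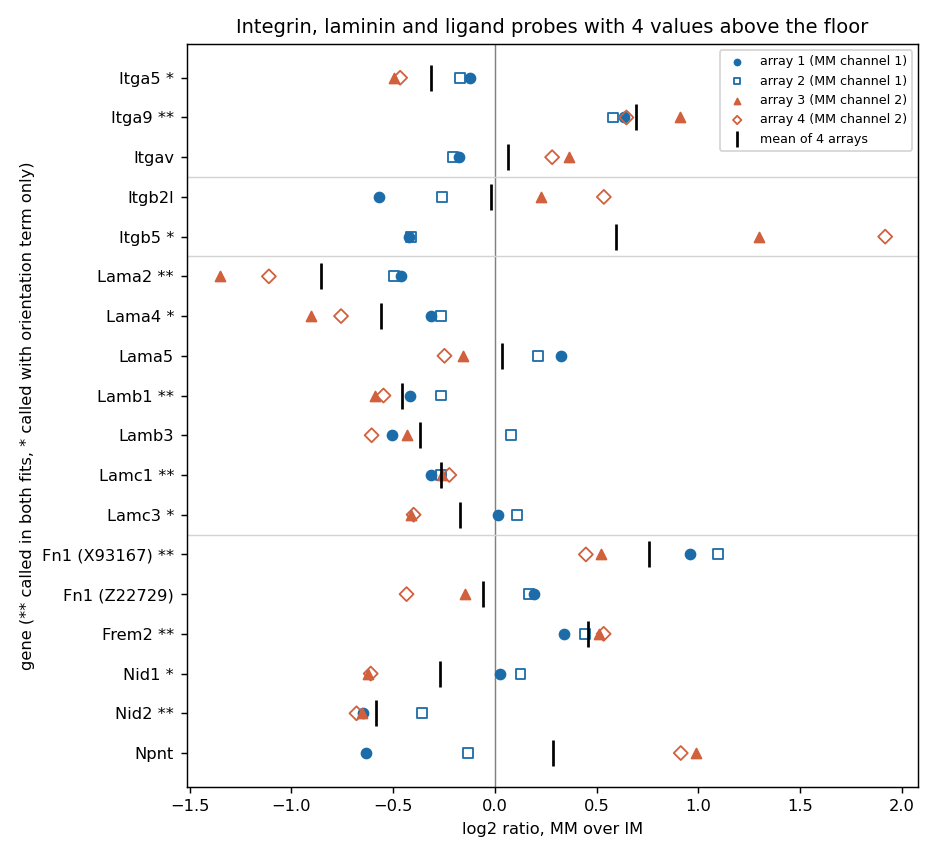
Log2 ratio of MM over IM (x axis) on each of 4 arrays for the 18 probes with 4 values above the floor (y axis, grouped as alpha subunits, beta subunits, laminin chains and ligands). Black bars are means, and colours mark the channel orientation. Itga9, Frem2 and 1 Fn1 probe lie above 0 on every array, and Lama2, Lama4, Lamb1, Lamc1, Nid2 and Itga5 below it.

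Laminin chains were the group with the most fully measured probes, and none of the 7 was called higher in MM (background 25.6%). With the orientation term 5 fell (background 34.5%), and 3 of them, Lama2, Lamb1 and Lamc1, fell in both fits (background 15.4%). The difference of these 7 probes from the backgrounds was not tested. Lama2, the alpha chain of muscle basement membrane, read -0.46, -0.50, -1.35 and -1.11 on arrays 1 to 4. All arrays were below 0, and arrays 3 and 4 were the lower pair. The mean of -0.86 ± 0.45 (SD, n = 4) is a 1.81-fold lower level in MM (adjusted p = 0.002 with the orientation term and 0.047 without it in limma). Of 7 markers of somite and muscle measured in full, 6 fell (background 34.5%) and 1, Des, rose (background 25.6%). The array medians of these markers were -0.99, -1.01, -1.61 and -1.64. The others were not measured in full: Myod1 read 1.00 and -0.23 on arrays 1 and 2 and was at the floor on arrays 3 and 4, and Actc1 read 3.49 and 4.22 on arrays 1 and 2 alone. Their part in the Lama2 value was not tested.

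Lamb1 and Lamc1, the beta and gamma chains shared by most embryonic laminins, fell by less. Lamb1 read -0.42, -0.26, -0.59 and -0.55, a mean of -0.46 ± 0.15 (1.37-fold lower, adjusted p = 0.00373 and 0.0212 without the orientation term). Lamc1 had the tightest values of the family, -0.32, -0.27, -0.26 and -0.22. Its mean of -0.27 ± 0.04 is a 1.20-fold lower level (adjusted p = 0.00537 and 0.0191).

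The other alpha chains measured in full gave a fixed order of ratios. Lama4, a chain of blood vessel basement membranes, read -0.32, -0.26, -0.90 and -0.76, and its mean of -0.56 ± 0.32 passed only with the orientation term (adjusted p = 0.00242, and 0.0593 without it). Endothelial markers went both ways beside it, 3 higher and 3 lower of 9 measured (backgrounds 25.6% and 34.5%). Their array medians were 0.29, 0.44, -0.26 and -0.20. Lama5, the alpha chain of most epithelial basement membranes after early development, read 0.33, 0.21, -0.16 and -0.25. It was not called (0.03 ± 0.28, adjusted p = 0.508, 95% interval -0.08 to 0.15, p and interval with the orientation term). That interval leaves out the difference between orientations, and all 4 values lie outside it. On each array the Lama5 ratio was above that of Lama4, which was above that of Lama2. Within arrays, Lama5 exceeded Lama4 by 0.59 ± 0.13 and Lama2 by 0.89 ± 0.21 on the log2 scale, and Lama4 exceeded Lama2 by 0.30 ± 0.13. These pairs were among 5 picked after the values were seen. In each of the 5 all 4 arrays had the same sign, and an exact two-sided sign-flip permutation test gave p = 0.125 (0.125 adjusted over the 5), the smallest that 4 arrays allow.

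Lamb3 and Lamc3, a chain of skin-type laminin and a rarer gamma chain, differed more between arrays. Lamb3 read -0.51, 0.08, -0.43 and -0.61, so that array 2 alone was above 0. It was not called (-0.37 ± 0.31, adjusted p = 0.0758) unless array 2 was left out (-0.51, adjusted p = 0.0482). On arrays 1 and 2, Lamc3 read 0.02 and 0.11, and the other orientation gave -0.41 and -0.40. Its mean of -0.17 ± 0.27 was called with the orientation term (adjusted p = 0.018, and 0.39 without it), and not when array 3 (adjusted p = 0.0947) or array 4 (adjusted p = 0.0907) was left out.

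The remaining laminin probes had no full set of values. Of the 2 probes for Lama1, the alpha chain of the first embryonic basement membranes, 1 read 0.18 and -0.20 on arrays 1 and 2 alone and the other 1.92 and 0.72 on arrays 3 and 4 alone. No array thus measured both. The 3 probes of Lama3, a chain of skin-type laminin, read between -0.15 and 0.37 on arrays 1 and 2. On the other arrays 1 of them read -0.29, 1 read -1.29, and 1 was at the floor. Lamb2, the beta chain of mature kidney and muscle basement membranes, read 3.98 and 4.59 on arrays 1 and 2, had no value on array 3 and stood at the floor on array 4.

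Among 6 matrix ligand probes, Frem2 and 1 of the 2 Fn1 probes rose (background 14.6%) and Nid2 fell (background 15.4%) in both fits. The difference of these probes from the backgrounds was not tested. Frem2, which holds embryonic epithelium to the tissue beneath it, read 0.34, 0.44, 0.51 and 0.53. Its mean of 0.46 ± 0.09 was a 1.37-fold higher level in MM (adjusted p = 0.00254 and 0.0101 without the orientation term). All 7 epithelial markers measured in full were also called higher (background 25.6%), 4 of them in both fits (background 14.6%). Their array medians were 0.80, 0.80, 0.96 and 1.15. Of these markers, 5 were above 0 on every array, while Cdh1 read -0.35 and -0.07 on arrays 1 and 2 and Krt19 read -0.24 on array 1. Of 4 nephric duct markers measured in full, 0 rose and 2 fell (background 34.5%), 1 of them in both fits (background 15.4%). The nephric duct array medians were -0.20, -0.20, -0.16 and -0.04. The part of either marker list in the Frem2 value was not tested. The rule found no probe under the symbols Fras1 and Frem1.

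Fibronectin, the ligand of Itga5 and Itga8 receptors, was read by 2 probes that disagreed. The probe for GenBank X93167 read 0.96, 1.10, 0.52 and 0.45 and rose in both fits (0.76 ± 0.32, 1.69-fold higher, adjusted p = 0.00144 and 0.0304). The probe for Z22729 read 0.19, 0.17, -0.15 and -0.43 and was not called (-0.06 ± 0.30, adjusted p = 0.483). The first exceeded the second on all 4 arrays, by 0.67 to 0.93. The direction for Fn1 as a gene is therefore uncertain.

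Nid2 and Nid1 encode the nidogens, which link laminin to collagen IV. Nid2 read -0.65, -0.36, -0.66 and -0.68, with all arrays below 0 and array 2 the closest to it, and fell 1.50-fold (-0.59 ± 0.15, adjusted p = 0.00563 and 0.0126). On arrays 1 and 2, Nid1 read 0.03 and 0.13, and the other orientation gave -0.63 and -0.61. Its mean of -0.27 ± 0.40 was called only with the orientation term (adjusted p = 0.00693, and 0.351 without it), and not without array 3 (adjusted p = 0.0529) or array 4 (adjusted p = 0.0505). Nid1 lay above Nid2 on every array, by 0.67 and 0.48 in the first orientation and by 0.03 and 0.07 in the second.

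Npnt, the nephronectin gene, had opposite signs in the 2 orientations. The first 2 arrays read -0.63 and -0.13 and the others 0.99 and 0.91, with no overlap. The mean of 0.28 ± 0.80 was not called (adjusted p = 0.0891 and 0.621), though it passed without array 1 (0.41, adjusted p = 0.0276). Its 95% interval with the orientation term, -0.02 to 0.59, leaves out the difference between orientations.

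Integrin subunits were sparsely measured, and of 5 probes measured in full Itga9 alone was called in both fits (background 30.1%). The difference of these probes from the background was not tested. Itga9, whose receptor with Itgb1 binds tenascin and fibronectin splice forms, read 0.63, 0.58, 0.91 and 0.65. All arrays were above 0, with array 3 the highest, and the mean of 0.69 ± 0.15 was a 1.62-fold higher level in MM (adjusted p = 0.00336 and 0.00833 without the orientation term). It missed the threshold without array 1 (adjusted p = 0.0555) or array 2 (adjusted p = 0.0525). Itga5, the main fibronectin receptor subunit, read -0.12, -0.17, -0.50 and -0.47. Its mean of -0.31 ± 0.19, 1.24-fold lower, passed only with the orientation term (adjusted p = 0.00361, and 0.0822 without it).

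Alpha v receptors bind the RGD peptide of many ligands, and 2 probes of their subunits, for Itgb5 and Itgav, had values above the floor on every array. Both had opposite signs in the 2 orientations. Itgb5 read -0.42, -0.41, 1.30 and 1.92 on arrays 1 to 4, so that its mean of 0.60 ± 1.20 joins values of both signs. It was called with the orientation term (adjusted p = 0.0259) and not without it (adjusted p = 0.477), nor without array 1 (adjusted p = 0.175) or array 2 (adjusted p = 0.176). One probe of Itgav, the alpha v subunit itself, read -0.18, -0.21, 0.36 and 0.28 and was not called (0.06 ± 0.30, adjusted p = 0.152). Its other probes read 0.04 and -0.03, and 1.77 and 0.91, on arrays 1 and 2. Itgb2l, a relative of the leukocyte beta subunit, read -0.57, -0.26, 0.22 and 0.54 (-0.02 ± 0.49, adjusted p = 0.878), and its second probe read -0.62 and -0.35 on arrays 1 and 2 alone.

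The orientation term passed for 11 of the 18 probes, against a background of 41.2%. Across these 18 probes, which are no replicates, the ratios of same-orientation arrays had a Pearson correlation of 0.908 (arrays 1 and 2) and 0.96 (arrays 3 and 4). Pairs of arrays of opposite orientation gave 0.145 to 0.362. All probes measured this fully gave 0.836, 0.912 and 0.113 to 0.274.

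**Figure D2:**
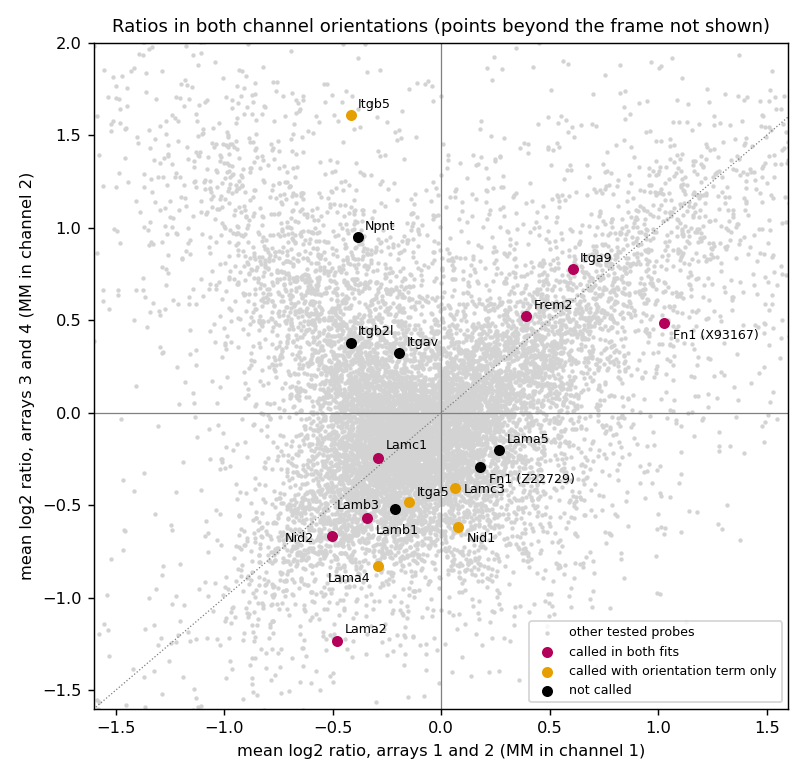
Mean log2 ratio of MM over IM on arrays 1 and 2 (x axis) against that on arrays 3 and 4 (y axis), with the 18 integrin, laminin and ligand probes coloured by call, other tested probes in grey and the line of equality dotted. Npnt, Itgb5, Itgav and Itgb2l lie in the upper left, with opposite signs in the orientations, and Itga9, Frem2, Lamc1, Lamb1 and Nid2 lie nearer to the line.

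Most integrin probes gave ratios on arrays 1 and 2 only. Arrays 3 and 4 held no value above the floor for 20 of 26 integrin probes (76.9%) and for 3 of 19 laminin and ligand probes (15.8%), against 33.6% of all probes. Itga8, the alpha subunit of the nephronectin receptor, read 3.67 and 4.16 on arrays 1 and 2 and was at the floor on both others. Itgb1, its partner and the beta subunit of most matrix receptors, read 3.87 and 4.53, with no value on array 3 and the floor on array 4. Both thus had high ratios in one orientation and no measured ratio in the other, and no direction is given for either.

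The same pattern held for integrins of other roles. On arrays 1 and 2, Itga4, whose receptors bind fibronectin and Vcam1, read 2.86 and 3.79, and Itgb7, its leukocyte partner, 3.60 and 4.22. Itga2, a collagen receptor subunit, read 3.47 and 3.12, and Itga7, a laminin receptor subunit of muscle, 3.13 and 2.21. Neither array 3 nor array 4 measured any of these above the floor. The laminin receptor subunits Itga3 (1.43 and 0.37), Itga6 (2.57 and 1.00) and Itgb4 (3.32 and 0.89) spread more between arrays 1 and 2. Itgb6, an epithelial partner of Itgav, spread most, at 3.90 and 0.34.

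Integrins of blood cells shared these gaps. Itgal read 3.34 and 2.53, Itgam 1.52 and 1.56, Itgax 3.00 and 0.17 and Itgb2, the beta subunit of these leukocyte receptors, 0.52 and 0.09 on arrays 1 and 2. The platelet receptor subunits Itga2b and Itgb3 read 0.91 and 0.43, and 0.63 and 0.29. Itgae, of intraepithelial lymphocytes, read 0.02 and -0.04, and Itga1, a collagen receptor subunit, -0.22, -0.07 and, on array 4, -0.64. Leukocyte markers had 11 genes on the arrays, of which 3 were measured in full: Laptm5 (-0.53 ± 0.02) and Cd68 (-0.53 ± 0.20) fell and Coro1a (0.20 ± 0.16) rose. The leukocyte markers without a full set included high ratios on arrays 1 and 2, as for Spi1 (3.21 and 3.45) and Cd53 (1.02 and 0.66), and Ptprc read -0.49 and -0.36 there. The median of the whole leukocyte list over those arrays was 0.59. Adgre1 read 0.17 on array 2 and 2.05 and 1.93 on arrays 3 and 4. Fcer1g read 0.38, 0.24, the floor and -1.86 on arrays 1 to 4. The platelet markers Gp9 (-0.15 ± 0.31, adjusted p = 0.0814), Ppbp (-0.06 ± 0.50) and Gp1bb (-0.06 ± 0.35) were not called. On arrays 1 and 2, the platelet markers Pf4 and Gp5 read 2.36 and 0.82, and 3.22 and -0.79, and neither had a value above the floor on arrays 3 and 4. The part of blood cells in the integrin ratios was not tested.

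High ratios were common among probes of this kind. Of the 20 integrin probes without a measured value on arrays 3 and 4, 8 read above 1 on both other arrays (40%), with a median of 1.68. Over all 6740 such probes with values on arrays 1 and 2 the share was 24.3% and the median 0.42, against a median of -0.11 for probes that arrays 3 or 4 did measure. Probe numbers 3813 to 7366 hold 36 of the 45 member probes. Among the 3518 other probes in that range, arrays 3 and 4 lacked a value above the floor for 39.3%, and 35.4% of those read above 1 on both other arrays, with a median of 0.95.

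**Figure D3:**
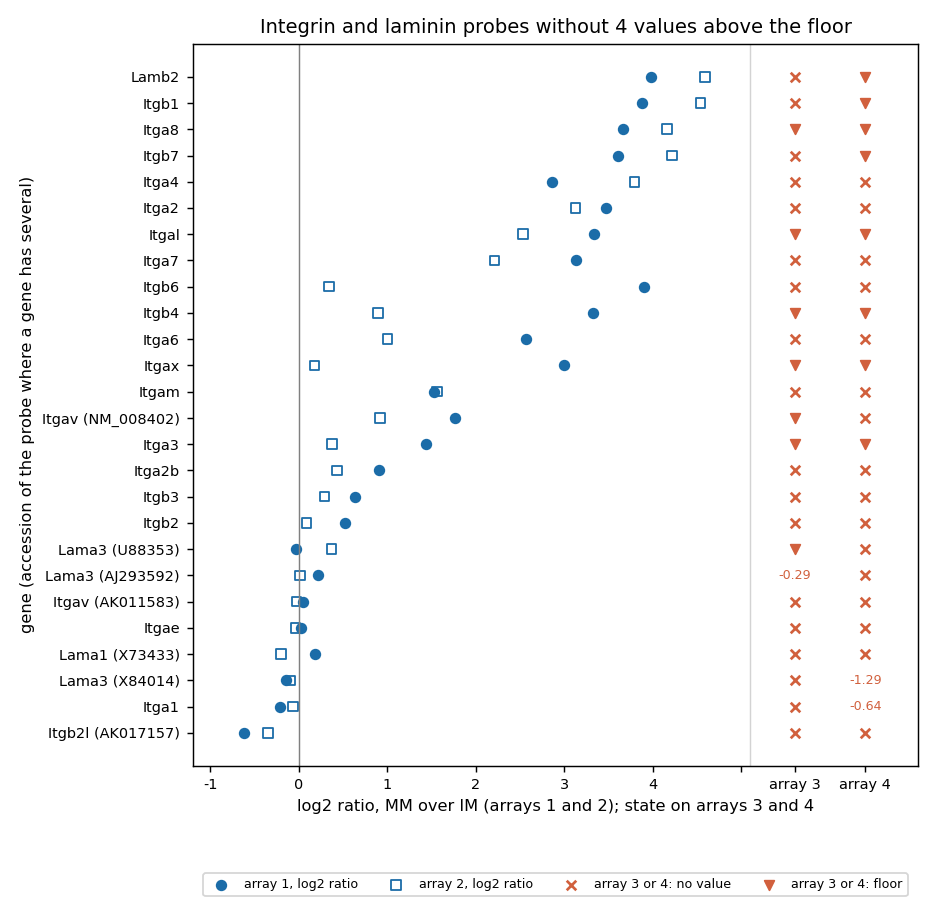
Log2 ratio of MM over IM on arrays 1 and 2 (x axis) for the probes without 4 values above the floor (y axis, highest first; a Lama1 probe with no value on arrays 1 and 2 is not drawn), with the state on arrays 3 and 4 in the columns at the right (cross, no value; triangle, floor; number, log2 ratio). The highest pairs, Lamb2, Itgb1, Itga8 and Itgb7, have no measured ratio on arrays 3 and 4.

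The start regions of the genes called in both fits are shown where an entry exists, for 4 of 7 genes, so that those higher and lower in MM can be read side by side. They are RefSeq sequences of the build GRCm38.p6, from 250 bases before to 50 after an annotated start. Whether that start is the main one of each gene was not checked. Capitals mark the GC box GGGCGG, the CCAAT box CCAAT and the TATA box TATAAA on either strand. Frem2 (chr3:53657306-53657605, minus strand) and Itga9 (chr9:118711442-118711741, plus strand) were higher in MM, and Lama2 (chr10:27616893-27617192, minus strand) and Lamb1 (chr12:31265043-31265342, plus strand) lower.
Frem2: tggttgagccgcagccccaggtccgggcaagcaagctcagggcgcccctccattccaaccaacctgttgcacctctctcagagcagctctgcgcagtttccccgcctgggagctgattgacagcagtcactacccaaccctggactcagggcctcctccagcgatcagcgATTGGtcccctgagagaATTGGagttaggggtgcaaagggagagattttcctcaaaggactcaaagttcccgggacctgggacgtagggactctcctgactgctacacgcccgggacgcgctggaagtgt
Itga9: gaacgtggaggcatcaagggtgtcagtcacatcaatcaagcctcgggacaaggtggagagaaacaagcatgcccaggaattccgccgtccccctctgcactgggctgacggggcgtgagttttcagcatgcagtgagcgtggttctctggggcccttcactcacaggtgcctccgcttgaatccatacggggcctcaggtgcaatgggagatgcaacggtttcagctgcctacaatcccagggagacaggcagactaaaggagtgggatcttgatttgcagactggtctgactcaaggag
Lama2: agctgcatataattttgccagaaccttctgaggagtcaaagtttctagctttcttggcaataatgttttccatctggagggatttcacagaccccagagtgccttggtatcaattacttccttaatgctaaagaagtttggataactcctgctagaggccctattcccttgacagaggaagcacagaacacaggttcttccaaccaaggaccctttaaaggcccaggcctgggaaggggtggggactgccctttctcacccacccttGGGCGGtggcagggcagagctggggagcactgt
Lamb1: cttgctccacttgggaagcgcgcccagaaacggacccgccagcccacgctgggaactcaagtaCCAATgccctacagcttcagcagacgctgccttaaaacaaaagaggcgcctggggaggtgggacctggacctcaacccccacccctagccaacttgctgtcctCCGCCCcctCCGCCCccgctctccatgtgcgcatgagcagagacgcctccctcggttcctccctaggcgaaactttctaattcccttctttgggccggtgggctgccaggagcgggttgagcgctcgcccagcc

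The GC box occurred 2 times in the Lamb1 window and 1 time in that of Lama2, both lower in MM, and not in the other windows. The CCAAT box occurred 2 times in Frem2 and 1 time in Lamb1, the TATA box in none of the 4, and the Itga9 window held no motif of the 3. Over all 32851 windows of this length, 35.7% held the GC box, 37.4% the CCAAT box and 13.6% the TATA box. The motifs do not overlap one another in these windows and are a description of the letters alone.

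Genes around the integrins and laminins went both ways. Of 18 probes for other basement membrane components, 7 rose and 7 fell (3 and 5 in both fits). Their median was -0.09, against -0.05 over all probes measured in full. Of all such probes 25.6% rose and 34.5% fell (14.6% and 15.4% in both fits), and the difference of the list was not tested. Sparc, a collagen-binding matrix protein (-1.14 ± 0.14), Fbln2, a fibulin (-0.52 ± 0.07), and Col4a2, a collagen IV chain (-0.45 ± 0.13), fell in both fits, as Lamb1, Lamc1 and Nid2 did. Pxdn, the peroxidase that crosslinks collagen IV (0.52 ± 0.04), and the Sparc relatives Smoc1 (0.62 ± 0.06) and Smoc2 (1.64 ± 0.31) rose in both fits. Col4a1, the partner chain of Col4a2, was not called (-0.10 ± 0.23, adjusted p = 0.131).

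Inside the cell, genes of the adhesion complex also went both ways. Of 24 probes, 10 rose and 9 fell (7 and 2 in both fits), with a median of 0.02. The backgrounds were 25.6% higher and 34.5% lower (14.6% and 15.4% in both fits), and the difference of the list from them was not tested. Ilk, the kinase-like protein at integrin beta tails, read 0.45, 0.42, 0.32 and 0.28 (0.37 ± 0.08, adjusted p = 0.00251). Its complex partner Rsu1 (0.52 ± 0.20) and the tyrosine kinase Fyn (1.49 ± 0.36) rose in both fits. The 2 probes of the actin crosslinker Actn4 disagreed, at -0.46 ± 0.14 and 0.21 ± 0.01, each called in both fits. Talin, which activates integrins, was not called for Tln1 (-0.05 ± 0.36, adjusted p = 0.381) or Tln2 (0.04 ± 0.21, adjusted p = 0.496).

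Of 19 probes for other integrin ligands, 7 rose and 7 fell (4 and 5 in both fits), with a median of -0.01. For this and the following lists, the backgrounds were 25.6% higher and 34.5% lower (14.6% and 15.4% in both fits). Differences of these lists from them were not tested. The junction protein Jam3 (1.22 ± 0.10) rose, and Tgfbi (-0.67 ± 0.11), Col1a1 (-1.02 ± 0.11) and the junction protein F11r (-0.73 ± 0.05) fell. Col1a2, the partner chain of Col1a1, went the other way and rose in both fits (0.78 ± 0.20). Among 12 probes for integrin regulators and binding proteins, 4 rose and 7 fell (2 and 3 in both fits). The tetraspanin Cd81 (1.20 ± 0.05) and the integrin-associated transporter chain Slc3a2 (0.94 ± 0.14) rose, and the endocytic adaptor Dab2 (-1.31 ± 0.54) and Itgb3bp (-0.70 ± 0.07) fell. Probes of Cd47 disagreed: 1 fell in both fits (-0.61 ± 0.11), and the other read 2.20, 0.80 and 0.86 on arrays 2 to 4. Of 16 probes for other laminin and matrix receptors, 2 rose and 6 fell (1 and 1 in both fits). Dystroglycan, Dag1, was slightly lower with the orientation term alone (-0.15 ± 0.03, adjusted p = 0.0159), and the collagen receptor Ddr2 fell in both fits (-0.53 ± 0.08). The 2 probes of Rpsa differed, 1 lower with the orientation term alone (-0.34 ± 0.66) and 1 not called (0.02 ± 0.04). Those of Sdc2 did too, 1 higher with the orientation term alone (0.39 ± 0.27) and 1 not called (-0.20 ± 1.50).

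**Figure D4:**
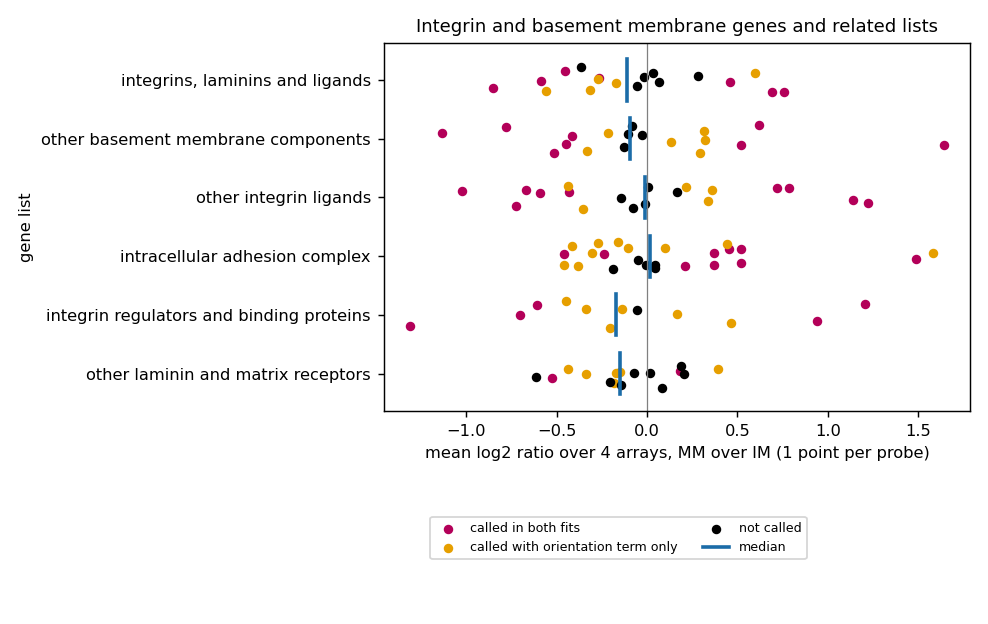
Mean log2 ratio of MM over IM over 4 arrays (x axis), 1 point per probe with 4 values above the floor, for the integrin, laminin and ligand probes and 5 related lists (y axis; the vertical spread of points within a list has no meaning), coloured by call, with list medians as blue bars. Every list holds calls on both sides of 0, and the medians lie between -0.18 and 0.02.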

How the data were processed

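The deposited values are log2 ratios of the 2 channels of each array. Imagene 5.5 quantified the spots, per the labels' protocols, and the authors exchanged the channels of arrays 3 and 4 because of the dye swap. They then adjusted the control value by a Lowess fit, with 20.0% of the data per point, and raised control values under 10 to 10. How background was corrected and spots were filtered is not given in the sources used here. Gene symbols came from the platform annotation: 17252 probes had 1 symbol, 156 several and 5294 none, and 16566 of the first kind matched the RefSeq table of GRCm38.p6.

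The 14184 probes with 4 values were fitted in limma 3.58.1 (R 4.3.3), with the tissue effect as intercept and a term for channel orientation, and p-values were adjusted by Benjamini-Hochberg over all of them. Scripts were tested on simulated data. SDs are over 4 arrays. Whether arrays share RNA extracts is not labelled, so the spread behind the p-values may be technical only. With the orientation term that spread is between arrays of the same orientation, and without the term it is between all 4 arrays. Members with 4 values above the floor that passed in either fit were named, with 14 genes fixed by their role. From each related list at most the 4 of smallest p were named, with some, not all, of the genes whose probes disagreed. Lamb3, Itgb2l, Col1a2, Col4a1, Col4a2, Smoc2, Tln1, Tln2 and Dag1 were named besides, chosen after their values were seen. So were the markers Wt1, Eya1, Hoxd11, Myod1, Actc1, Cdh1, Krt19, Adgre1, Fcer1g, Spi1, Cd53, Ptprc, Pf4 and Gp5. Members and lists were chosen with earlier results of these data known.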

Additional observations from a re-analysis of the deposited data

Results flagged for a closer look

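Nid2 on array 2, at -0.36, stood apart from the other arrays: its gap to the nearest of them was 0.90 of the whole range. Of 18 probes examined in this way 1 was picked out, and chance alone picks out about 1 in 20.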

How the results depend on the processing

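The fit with the orientation term called 8779 probes in all. Separate fits called 3968 without the term, 5614 on arrays 1 and 2 alone and 0 with each orientation averaged to 1 value. In that last limma fit 0 integrin, laminin or ligand probes were called in either direction (2 of 18 had an unadjusted p under 0.05). The 8 lower calls became 4 without the orientation term and 4 on arrays 1 and 2 alone. Leaving out each array in turn gave 5808 to 6782 calls in all, 2 to 4 higher and 6 to 9 lower among the 18 probes, and in both fits 0 to 1 higher and 0 to 3 lower. Signs changed on arrays 1 and 2 alone for Npnt (-0.38), Fn1 by Z22729 (0.18), Itgav (-0.19), Lamc3 (0.062), Nid1 (0.076) and Itgb5 (-0.42), and on arrays 3 and 4 alone for Lama5 (-0.20) and Itgb2l (0.38). Itgb2l also changed with arrays centred (0.022) and without array 1 or 3, its range without each array in turn being -0.096 to 0.060, and Fn1 by Z22729 without array 4, its range being -0.13 to 0.015. The cause was not tested. Leaving out probes at the floor, testing probes with 3 or more values, scaling the arrays and weighting them each kept the call and direction of all 18 in the fit with the orientation term. In both fits the 3 higher calls stayed 3 in number, and the 4 lower calls became 3 with 3 or more values and 5 with floor probes left out, arrays scaled or arrays weighted. Of the 7 probes called in both fits, none changed sign under any alternative run. Each had the same sign on all 4 arrays, so fits to fewer arrays could not change that sign. Each array holds both tissues, so each ratio already pairs MM with IM within an array.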
